A study of Arabidopsis thaliana with 20 samples.

Results

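The expression of 5 genes of leaf mitochondrial metabolism was followed through the day in Arabidopsis thaliana wild type (WT) and in Atss3, a mutant of starch synthase 3. The genes were IVD (AT3G45300), MCCA (AT1G03090), ALDH6B2 (AT2G14170), ETFBETA (AT5G43430) and ETFQO (AT2G43400), which act in the breakdown of the branched-chain amino acids leucine, isoleucine and valine. They were found by name, as the probe sets that the platform annotation assigns to them. Each gene had exactly 1 probe set, so that 5 of the 22746 probe sets other than controls are described, and 0 probe sets annotated with several genes named any of them. The arrays read 13286 genes through such a probe set of their own. The arrays were Affymetrix ATH1 GeneChips, hybridised with biotin-labelled leaf RNA. Both genotypes were grown in short days of 8 h light and harvested 1 h and 4 h after lights on, and at 8.5 h, 12 h and 16 h, when they were in darkness. The remaining hours of the night, from 16 h on, were not sampled. Each of the 10 groups had 2 arrays, 1 from each of 2 separate runs of the experiment, and each array held a pool of leaves 5 to 8 from 16 six-week-old plants.

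Plant mitochondria oxidise branched-chain amino acids stepwise as coenzyme A esters, and the pathway can feed respiration when carbohydrate runs short. IVD, isovaleryl-CoA dehydrogenase, acts on the leucine branch, and MCCA, the biotin-carrying subunit of 3-methylcrotonyl-CoA carboxylase, acts on its product. ALDH6B2, methylmalonate semialdehyde dehydrogenase, belongs to the valine branch. Electrons taken up by IVD pass to the electron transfer flavoprotein, of which ETFBETA is a subunit, and from there through ETFQO, the flavoprotein:ubiquinone oxidoreductase, into the respiratory chain.

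On each of the 20 arrays all 5 probe sets exceeded the 40th percentile of that array, and they were among the 15470 probe sets kept for testing. Values are linear MAS5 signals, which carry no unit and cannot be set against each other between probe sets, and differences are on the log2 scale. The control probe sets that report RNA quality differed between arrays in 2 ways. For the GAPDH control, the 3′ probe set minus the 5′ probe set gave −0.13 log2 on average in the 5 WT arrays of run 1 (range −0.22 to 0.05), 0.30 in WT run 2, 0.38 in Atss3 run 1 and 0.43 in Atss3 run 2. For the actin control the same difference was 1.91 and 1.41 on the Atss3 arrays of 1 h, the lowest 2 of the 20 arrays, and 2.11 to 3.43 on the other 18. No named probe set reported SS3 itself, so the mutant label was not checked on the RNA. RCA, rubisco activase and the one measured marker of 9 fixed for leaf mesophyll, gave signals of 15315 to 26189 in WT and 14890 to 28899 in Atss3. Of 8 root markers 3 were measured, with summed signals of 256 to 636 in WT and 292 to 766 in Atss3, of which EXPA7 was above the 40th percentile on 0 arrays. Of 5 seed markers 0 had a named probe set. Of 9 guard cell, vascular and epidermal markers FMA and SWEET11 were measured, with summed signals of 3138 to 8422 in WT and 3578 to 7190 in Atss3. In whole leaves, fewer cells of a type cannot be told apart from less RNA per cell.

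**Figure D1:**
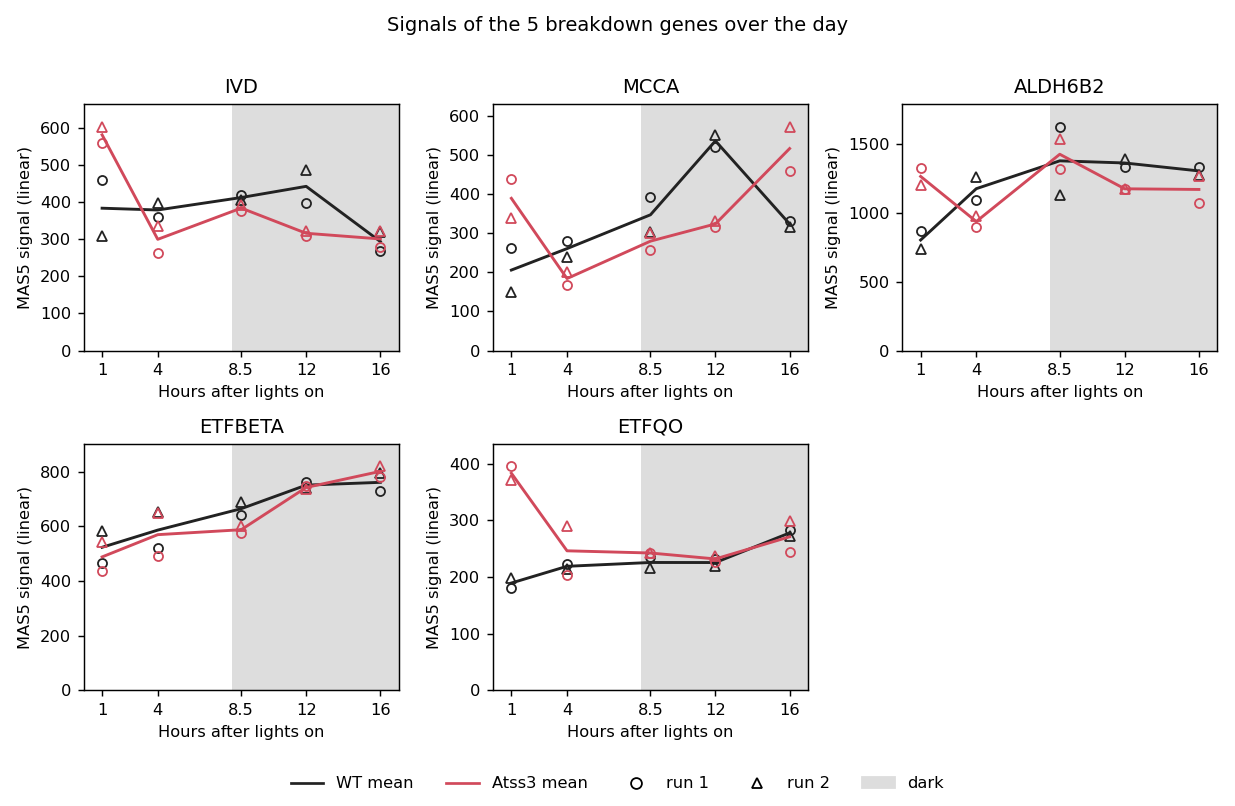
Signal of each gene on every array (linear MAS5 scale, y axis from 0) against hours after lights on; circles are run 1, triangles run 2, lines the means of 2 arrays, and the shaded span is darkness. In Atss3, IVD and ETFQO were highest at 1 h, with means of 581 and 383, while ETFBETA climbed to its highest mean at 16 h in both genotypes.

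On the leucine branch, MCCA was low at the start of the WT day and highest at 12 h. The WT signals in run 1 and run 2 were 261.9 and 149.3 at 1 h, 281.1 and 239.7 at 4 h, 392.0 and 301.7 at 8.5 h, 519.5 and 551.9 at 12 h, and 330.7 and 316.1 at 16 h. Both 12 h arrays exceeded all other WT arrays. For this and the later separations between times, the share of kept probe sets showing the same was not counted. MCCA rose by 1.44 log2 between 1 h and 12 h (SE 0.244, 2.71-fold, limma adjusted p = 0.00073). In Atss3 the signals were 438.0 and 339.8 at 1 h, 166.5 and 201.4 at 4 h, 257.9 and 301.1 at 8.5 h, 316.8 and 330.1 at 12 h, and 459.8 and 572.3 at 16 h. The mutant's lowest arrays were thus those of 4 h and its highest those of 16 h. Between 1 h and 4 h MCCA fell by 1.08 log2 in Atss3 (SE 0.244, adjusted p = 0.00709), and it rose by 1.49 between 4 h and 16 h (2.80-fold, adjusted p = 0.000998), where 23.4% of kept probe sets were called. The fall missed the threshold without the run 1 array of 1 h or without that of 4 h in Atss3, with an adjusted p of up to 0.0729.

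IVD, the step before MCCA, showed no called change among times in WT (F test over the 5 times, adjusted p = 0.141) and a called one in Atss3 (adjusted p = 0.00512). The difference between these responses was not called, as described below. WT signals were 459.0 and 307.9 at 1 h, 358.8 and 398.5 at 4 h, 417.7 and 406.7 at 8.5 h, 398.1 and 486.5 at 12 h, and 268.8 and 318.4 at 16 h. The 2 WT arrays of 1 h lay far apart. In Atss3 the signals were 558.8 and 603.5 at 1 h, 263.4 and 335.8 at 4 h, 374.8 and 392.6 at 8.5 h, 309.6 and 322.2 at 12 h, and 279.9 and 321.4 at 16 h. Both Atss3 arrays of 1 h were above every other IVD array of either genotype. IVD fell between 1 h and 4 h in Atss3 by 0.97 log2 (SE 0.194, 1.95-fold, adjusted p = 0.00356) and stayed lower than at 1 h at each later time, by 0.60 at 8.5 h, by 0.88 at 12 h and by 0.95 at 16 h. The comparisons of 1 h with 4, 12 and 16 h passed the threshold under all 28 alternatives tried, and that with 8.5 h under 23 of them.

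ALDH6B2, on the valine branch, was lowest at 1 h in WT. Its WT signals were 869 and 737 at 1 h, 1092 and 1261 at 4 h, 1628 and 1129 at 8.5 h, 1337 and 1389 at 12 h, and 1337 and 1274 at 16 h. Every later WT array exceeded both WT arrays of 1 h. The rise from 1 h was 0.76 log2 at 8.5 h (SE 0.186, adjusted p = 0.00696), 0.77 at 12 h (adjusted p = 0.00745) and 0.71 at 16 h (adjusted p = 0.0148). In Atss3 the signals were 1325 and 1206 at 1 h, 895 and 980 at 4 h, 1318 and 1535 at 8.5 h, 1174 and 1177 at 12 h, and 1072 and 1270 at 16 h. Here the 4 h arrays were the lowest, and the test over the 5 times was not called (adjusted p = 0.119). These 3 rises passed under 25, 26 and 24 of 28 alternatives, and each missed the threshold without the WT run 2 array of 1 h.

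ETFBETA had the same order of mean levels in WT and Atss3, rising from 1 h through 4, 8.5 and 12 h to 16 h. Its single arrays did not all follow this order, and limma called no difference between neighbouring times. In WT its signals were 465.1 and 581.2 at 1 h, 519.8 and 652.5 at 4 h, 639.6 and 689.4 at 8.5 h, 762.2 and 739.3 at 12 h, and 727.8 and 794.2 at 16 h. In Atss3 they were 435.0 and 541.0 at 1 h, 489.8 and 649.1 at 4 h, 574.3 and 600.8 at 8.5 h, 746.2 and 738.2 at 12 h, and 782.2 and 820.1 at 16 h. All 12 h and 16 h arrays of a genotype exceeded all its 1 h and 4 h arrays, a pattern whose share over all kept probe sets was not counted. The rise from 1 h to 16 h was 0.55 log2 in WT (SE 0.150, adjusted p = 0.0183) and 0.72 in Atss3 (SE 0.150, 1.65-fold, adjusted p = 0.00304). The WT rise was lost without any of 3 of the 4 arrays compared, and the rise in Atss3 passed under all 28 alternatives.

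ETFQO, which receives the electrons from the flavoprotein, had its lowest mean at 1 h in WT and its highest at 1 h in Atss3. In WT, limma did not call 1 h against 4, 8.5 or 12 h (adjusted p = 0.45, 0.282 and 0.28). WT signals were 180.4 and 198.1 at 1 h, 223.5 and 213.9 at 4 h, 234.7 and 216.2 at 8.5 h, 232.2 and 218.5 at 12 h, and 282.9 and 272.3 at 16 h. In Atss3 they were 395.4 and 370.7 at 1 h, 202.8 and 289.3 at 4 h, 241.5 and 242.8 at 8.5 h, 226.3 and 237.1 at 12 h, and 243.6 and 297.9 at 16 h. The 1 h arrays were the lowest 2 of WT, and in Atss3 the highest 2. In WT the level was 0.55 log2 higher at 16 h than at 1 h (SE 0.168, adjusted p = 0.0297), although the test over all 5 times was not called (adjusted p = 0.128). In Atss3 ETFQO fell from 1 h by 0.66 at 4 h (adjusted p = 0.0132), by 0.66 at 8.5 h (adjusted p = 0.00798), by 0.72 at 12 h (adjusted p = 0.00489) and by 0.51 at 16 h (adjusted p = 0.036). The 4 h fall was lost without the run 1 array of 1 h or of 4 h in Atss3 (adjusted p up to 0.153) and the 8.5 h fall without the former (adjusted p = 0.0683). The 16 h fall was lost without either Atss3 array of 1 h and without the run 1 array of 16 h. It was also lost without the replicate block, with no filter and without the WT arrays of run 1, and passed under 22 of 28 alternatives. The test of ETFQO over the 5 times in Atss3 was lost without either Atss3 array of 1 h and without the WT arrays of run 1. It passed under 25 of 28 alternatives. The WT rise at 16 h was lost without any 1 of the 4 arrays compared and without the WT arrays of run 1. It was also lost with arrays centred or quantile normalised and with no filter, and passed under 20 of 28.

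Across the day, the test over 5 times called 3 of 5 genes in WT (MCCA, ALDH6B2 and ETFBETA) and 4 of 5 in Atss3 (all but ALDH6B2). The background was high, since 44.2% of kept probe sets were called in WT and 48% in Atss3. Taking the mean of 12 h and 16 h minus the mean of 1 h and 4 h as dark minus light, MCCA (0.88 log2, SE 0.172, adjusted p = 0.00172), ALDH6B2 (0.46, SE 0.131, adjusted p = 0.0162) and ETFBETA (0.46, SE 0.106, adjusted p = 0.0051) rose in WT, against 34.5% of kept probe sets called in either direction. In Atss3 MCCA (0.62, adjusted p = 0.0137) and ETFBETA (0.56, adjusted p = 0.00127) rose and IVD was lower by 0.43 (adjusted p = 0.0254), against 38.3%. The drop of IVD lay within the light, and compared with 4 h it differed by 0.09 at 12 h and 0.01 at 16 h. Some markers of other cell types moved in dark minus light. PYK10, a root marker, rose by 1.48 in WT (adjusted p = 0.00239) and by 1.01 in Atss3 (adjusted p = 0.0199), and SWEET11, a vascular marker, rose by 0.73 in WT (adjusted p = 0.00183), with 0.36 in Atss3 (adjusted p = 0.0714). RCA of the mesophyll fell by 0.46 in WT (adjusted p = 0.00585) and by 0.59 in Atss3 (adjusted p = 0.00114). PYK10 had its highest mean at 12 h in WT (539) and at 16 h in Atss3 (537), the times at which MCCA was highest. EXPA18, also a root marker, went the other way from PYK10, with −0.43 in WT (adjusted p = 0.513) and −1.17 in Atss3 (adjusted p = 0.065). It was above the 40th percentile on only 5 arrays of each genotype. FMA gave 0.21 in WT and 0.14 in Atss3. Neither EXPA18 nor FMA was called in either genotype, and the part of cell types in the changes over the day was not tested. The GAPDH ratio of the 5 WT arrays of run 1 stood apart. Without them only the run 2 array was left at each WT time, so WT calls have less replication to rest on. Dark minus light in WT was then 1.14 for MCCA, 0.46 for ALDH6B2, 0.32 for ETFBETA, 0.25 for ETFQO and 0.17 for IVD. The part of RNA quality in the changes over the day was not tested. Measured from 1 h, WT had 0 genes called at 4 h (background 16.5% of kept probe sets), where ALDH6B2 alone had an unadjusted p under 0.05, 2 at 8.5 h (33.6%), 3 at 12 h (30.8%) and 3 at 16 h (24.6%), all of them higher. Atss3 had 3 at 4 h (23.6%) and 2 at 8.5 h (37.2%), all lower, and 3 at 12 h (35.3%) and 3 at 16 h (31.6%), of which ETFBETA was higher and IVD and ETFQO lower. Over all 10 pairs of times, 9 of 50 comparisons were called in WT (19.8% of those of all kept probe sets) and 16 of 50 in Atss3 (21.5%). In order of level within a genotype, 38 of the 40 pairs of neighbouring times were not called, and 4 of these 38 had an unadjusted p under 0.05. The 2 called were IVD at 8.5 h and 1 h and ETFQO at 16 h and 1 h, both in Atss3, where 1 h was the higher. The 5 profiles were not of 1 shape. Over the 10 group means, Pearson's r ranged from −0.54 for ETFBETA and IVD to 0.66 for MCCA and ALDH6B2, a description of points that share arrays.

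The comparison of Atss3 with WT 1 h after lights on asks whether the mutant starts the day at another level. Signals of 4 genes, ETFQO, MCCA, ALDH6B2 and IVD, were higher on both Atss3 arrays than on both WT arrays at 1 h, a pattern met by 17% of kept probe sets, and ETFBETA overlapped. ETFQO was the single member past the threshold, with 0.11% of kept probe sets called. ETFQO was 1.02 log2 higher in Atss3 (SE 0.168, 2.03-fold, 95% interval 0.65 to 1.38, adjusted p = 0.0436), by 1.13 in run 1 and 0.90 in run 2. For MCCA the difference was 0.96 (SE 0.244, adjusted p = 0.233), for ALDH6B2 0.66 (SE 0.186, adjusted p = 0.287) and for IVD 0.63 (SE 0.194, adjusted p = 0.337). ETFBETA differed by −0.10 (95% interval −0.43 to 0.23, adjusted p = 0.878). The median of the 5 differences was 0.66, beside 0.03 over all kept probe sets.

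The call of ETFQO at 1 h depended on the model. Over 28 alternatives its difference stayed between 0.82 and 1.10 while its adjusted p ranged from 0.0236 to 0.276, and without the replicate block it was not called. Of the 20 fits that each left out 1 array, 2 kept the call, those without an Atss3 array of 4 h. The IVD difference was 0.28 in run 1 and 0.97 in run 2, that of MCCA 0.74 and 1.19, and that of ALDH6B2 0.61 and 0.71. At 1 h the GAPDH control gave −0.19 in WT and 0.43 in Atss3 in run 1, and 0.30 and 0.33 in run 2. The actin control gave 2.52 in WT and 1.91 in Atss3 in run 1, and 2.85 and 1.41 in run 2, so that it was lower in Atss3 in both runs. The part of RNA quality in the 1 h differences was not tested. Without the WT array of 1 h from run 1, IVD (1.00, adjusted p = 0.0316) and MCCA (1.37, adjusted p = 0.0367) were called and ETFQO was not. Without the WT array of 1 h from run 2, IVD differed by 0.26 (adjusted p = 0.794) and MCCA by 0.56 (adjusted p = 0.646). Root markers at 1 h summed to 259 and 439 in WT and to 292 and 464 in Atss3, and their part in the result was not tested.

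**Figure D2:**
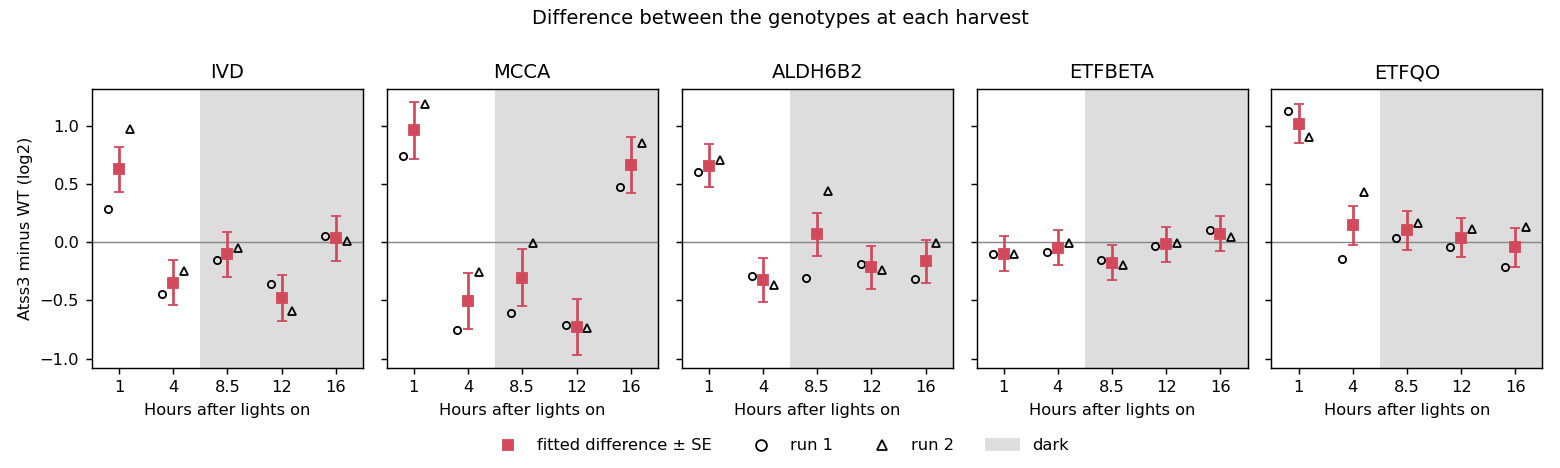
Log2 difference Atss3 minus WT (y axis) at each harvest (x axis, hours after lights on; darkness shaded) for the 5 genes; squares with bars are the fitted difference ± SE, circles run 1 and triangles run 2. IVD, MCCA, ALDH6B2 and ETFQO lay above 0 at 1 h in both runs, and the fitted difference of ETFBETA was −0.10 there.

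At the 4 later times, 0 of the 20 differences of a gene at a time were called, beside 0.0178% of such differences over all kept probe sets. At an unadjusted p under 0.05, 3 of the 20 passed, namely IVD at 12 h (−0.48) and MCCA at 12 h (−0.73, SE 0.244, adjusted p = 0.307) and at 16 h (0.67, SE 0.244, adjusted p = 1). At 4 h the Atss3 arrays were both below the WT arrays for IVD, MCCA and ALDH6B2, a pattern seen in 11.6% of kept probe sets. At 8.5 h IVD, MCCA and ETFBETA were below (14.8%) and ETFQO above (19%). The MCCA arrays were nearly touching there, since the lower WT array read 301.7 and the higher Atss3 array 301.1. At 12 h IVD, MCCA and ALDH6B2 were below (19.5%), and at 16 h MCCA was above (12.9%) and ALDH6B2 below (13.2%). MCCA thus had its highest mean at 16 h in Atss3 and at 12 h in WT. Averaged over the 5 times, 0 of 5 genes were called (0.0194% of kept probe sets), and ETFQO alone had an unadjusted p under 0.05, with a difference of 0.25 (SE 0.0751, adjusted p = 0.206).

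The test of whether the time course itself differed between the genotypes called 0 of 5 genes after adjustment, beside 0.00646% of kept probe sets. Unadjusted, 4 of 5 were under 0.05. The adjusted p was 0.338 for MCCA, 0.517 for ETFQO, 0.631 for IVD, 0.678 for ALDH6B2 and 0.974 for ETFBETA. In the single contrast of the change from 1 h to 4 h, Atss3 minus WT, a comparison chosen after the values were seen, the difference was −1.47 for MCCA (SE 0.345, adjusted p = 0.479), −0.98 for ALDH6B2 (SE 0.263), −0.97 for IVD (SE 0.275), −0.87 for ETFQO (SE 0.237) and 0.05 for ETFBETA (SE 0.212). None of these 5 was called by limma, beside 0.0194% of kept probe sets, and 4 had an unadjusted p under 0.05. In that interval IVD, MCCA and ETFQO fell in Atss3, against 23.6% of kept probe sets called. In WT 0 of 5 genes were called, against 16.5%, and ALDH6B2 had a limma adjusted p of 0.0617. Dark minus light differed between the genotypes by −0.58 for ETFQO (SE 0.168, adjusted p = 0.928) and called 0 of 5 genes, beside 0% of kept probe sets, with ETFQO alone under 0.05 unadjusted.

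The rest of the pathway was examined through a list. Of 22 listed genes of branched-chain amino acid breakdown, oxidation and electron transfer, 13 were measured, 8 of them beyond the 5 described. At 1 h, limma called 0 of the 8 between genotypes, 0 had an unadjusted p under 0.05, 4 were above 0, and their median difference was −0.03, beside 0.03 over all kept probe sets. MCCB, the partner subunit of MCCA in the same carboxylase, differed by 0.04 (SE 0.203, 95% interval −0.40 to 0.48, adjusted p = 0.968). ETFALPHA, the partner of ETFBETA in the flavoprotein, differed by −0.11 (SE 0.182, adjusted p = 0.897), and D2HGDH, D-2-hydroxyglutarate dehydrogenase, which passes its electrons to the same flavoprotein, by 0.07 (SE 0.177, adjusted p = 0.934). Whether the partners differ from MCCA and ETFBETA in this respect was not tested.

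**Figure D3:**
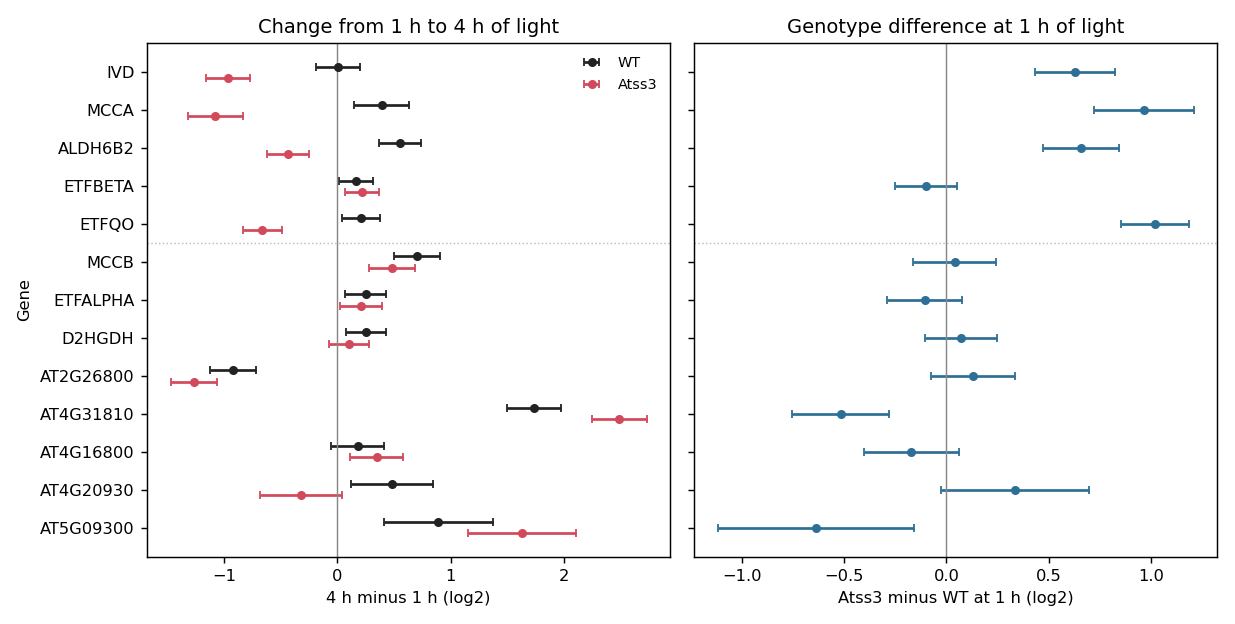
Log2 differences ± SE for the 5 genes (above the dotted line) and the other 8 measured genes of the pathway; the left panel gives 4 h minus 1 h in WT (black) and Atss3 (red), the right panel Atss3 minus WT at 1 h. In the left panel IVD, MCCA and ETFQO are below 0 in Atss3, and AT4G31810 is the furthest above 0 in both genotypes.

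Over the day, MCCB rose in dark minus light by 0.48 log2 in WT (SE 0.144, adjusted p = 0.0215) and by 0.51 in Atss3 (SE 0.144, adjusted p = 0.0146). Its lowest mean was at 1 h in both genotypes, so that in Atss3 its lowest time was that at which IVD and ETFQO were highest. AT2G26800 went the other way and was lower in dark minus light by 0.97 in WT (adjusted p = 0.000235) and by 1.04 in Atss3 (adjusted p = 0.000142). Its mean was highest at 1 h and dropped within the light, from 2112 to 1100 at 4 h in WT and from 2257 to 940 in Atss3. In darkness its mean was 614 at 12 h and 961 at 16 h in WT, and 548 and 923 in Atss3. AT4G16800 rose by 0.46 in WT (adjusted p = 0.0457), with 0.37 in Atss3 (adjusted p = 0.0953). AT4G31810 rose by 0.78 in Atss3 (adjusted p = 0.00315), with 0.30 in WT (adjusted p = 0.196). Its clearest change lay within the light, from 1 h to 4 h, at 1.73 in WT (adjusted p = 0.00052) and 2.49 in Atss3 (5.62-fold, adjusted p = 2.37e-05), although it was above the 40th percentile on only 17 of 20 arrays. ETFALPHA, D2HGDH, AT4G20930 and AT5G09300 were not called in dark minus light in either genotype. In all, dark minus light called 3 of the 8 in each genotype, with medians of 0.26 in WT and 0.20 in Atss3, beside 0.05 and 0.04 over all kept probe sets. That count was close to the background of 34.5% in WT and 38.3% in Atss3.

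**Figure D4:**
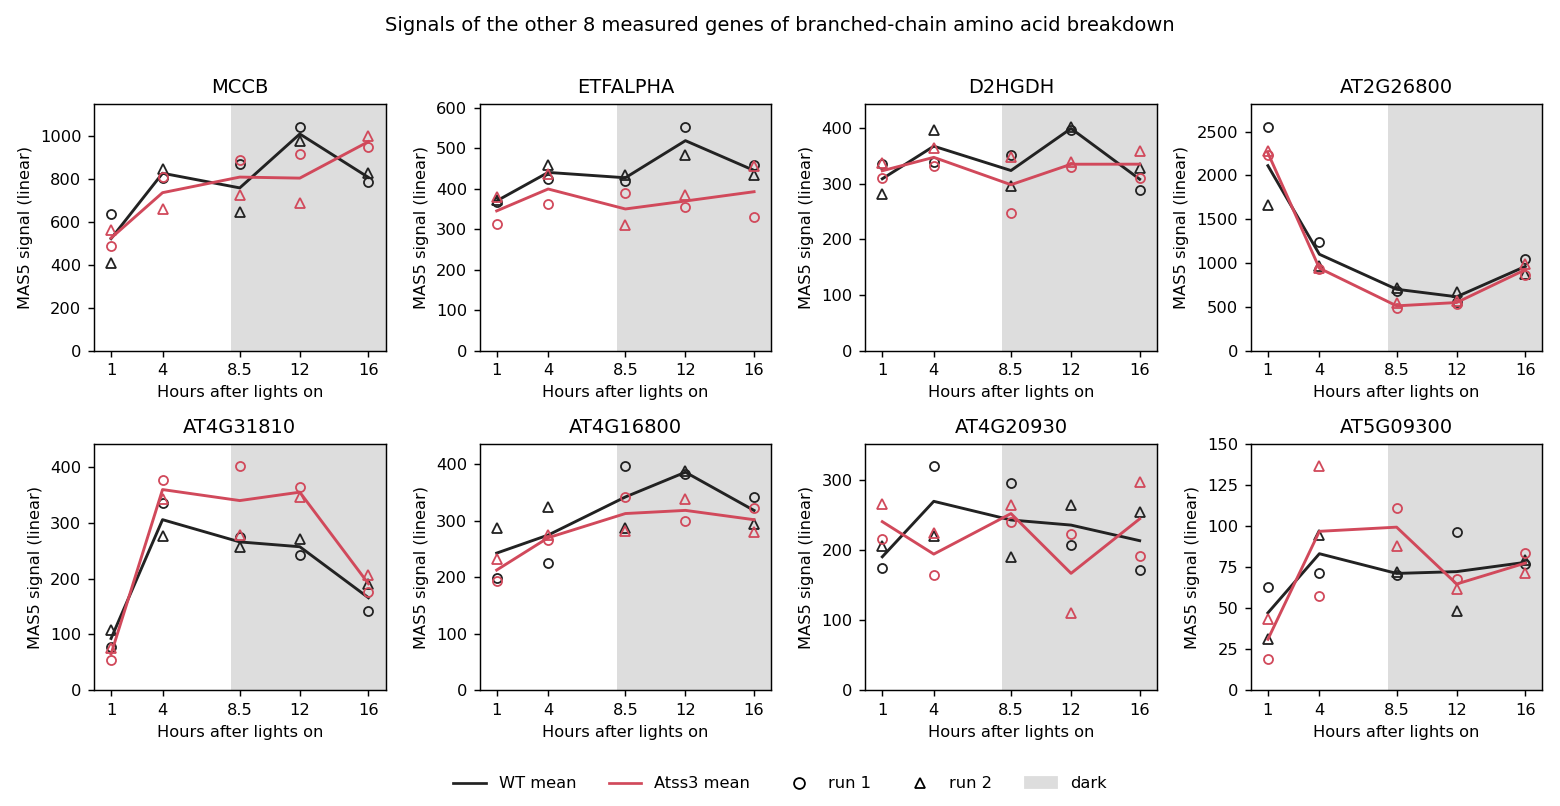
Signal (linear MAS5 scale, y axis from 0) on every array against hours after lights on for the other 8 measured genes of the pathway; circles are run 1, triangles run 2, lines the means of 2 arrays, and darkness is shaded. AT2G26800 has its highest and MCCB its lowest mean at 1 h in both genotypes.

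Few genes of neighbouring pathways were measured through named probe sets, and their counts stand against the same 34.5% of kept probe sets called in WT and 38.3% in Atss3. Of 15 listed genes of branched-chain amino acid synthesis 4 were measured, and dark minus light called 1 of them in WT, AT2G31810 (1.11 log2, adjusted p = 3.82e-05), and 3 in Atss3. Of 23 genes for the breakdown of other amino acids 4 were measured, and 0 were called in dark minus light in either genotype, with 1 in each under an unadjusted p of 0.05. In WT the smallest p-values among them were those of AT4G33150 (0.74, adjusted p = 0.0648), listed as lysine-ketoglutarate reductase/saccharopine dehydrogenase of lysine breakdown, and of DELTA-OAT (0.20, adjusted p = 0.38), the ornithine aminotransferase. At 1 h all 4 were above 0 in Atss3 minus WT, with a median of 0.59 beside 0.03 over all kept probe sets, 0 called and 0 with an unadjusted p under 0.05. Of 20 regulators and markers of energy starvation 3 were measured, and AKINBETA1, a regulatory subunit of the SnRK1 kinase, rose in WT by 1.91 in dark minus light (adjusted p = 4.64e-06) and BZIP53, a transcription factor, by 0.84 (adjusted p = 0.00417). The other measured gene, bZIP44, a related factor, gave −0.57 in WT (adjusted p = 0.106) and −0.66 in Atss3 (adjusted p = 0.0579). Of 5 senescence genes 2 were measured, and SAG29, a sugar transporter gene, fell by 2.68 in WT (adjusted p = 0.000316). Its WT signals were 90.6 and 45.0 at 12 h and 81.4 and 14.2 at 16 h. The 40th percentiles of the arrays were 80.5 to 103.8, so the size of this fall rests on low signals. The other, SAG101, an acyl hydrolase gene, went the other way, with 0.55 in WT (adjusted p = 0.0652) and a rise of 0.98 in Atss3 (adjusted p = 0.00323).

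The genes most like the 5 in profile were ranked by Pearson's r over the 10 group means with the mean of the 5 standardised profiles. Of 4147 candidate probe sets that named 1 gene and spanned at least 1 log2, PHV, a homeodomain-leucine zipper transcription factor gene, came first (r = 0.89). Its mean signal in WT was 194.1 at 1 h and 346.0 at 12 h, and in Atss3 it was 305.8 at 1 h and 165.9 at 4 h. PHV was higher at 1 h on the mean of Atss3 than of WT by 0.68 log2 (SE 0.214, adjusted p = 0.337), which did not pass the threshold. The ranking used the same group means, those of 1 h included, so this difference was not independent of the choice of PHV. The next were AT3G52480, AT3G60490, AT1G12320, AT3G26470, AT3G21790, AT2G37130, AT3G57770 and JAL33, a jacalin-related lectin gene, down to AT1G30860 at r = 0.80. AT3G60490 was above the 40th percentile on only 2 arrays.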

How the data were processed

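Leaf RNA of 20 pools was measured on Affymetrix ATH1 arrays. The deposited values are linear signal intensities made by the authors with MAS5, per the submitters' processing notes (version not given in the sources used here). Cutting 2% from each end, each array had a trimmed mean of 500.0, so the arrays had been scaled to one level, and no column was left out. Probe sets were named from the platform annotation, which lists 14016 probe sets, 503 of them with several genes and 13513 with 1 gene, of which 13436 matched RefSeq by Entrez identifier. From the deposited intensities log2 values were taken (floor of 1), and the 15470 of 22746 probe sets that exceeded the 40th percentile of the array on 2 or more arrays were kept.

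A linear model of 10 group means with the run as a block was fitted to all kept probe sets with limma 3.58.1 in R 4.3.3, and moderated tests were adjusted by Benjamini-Hochberg within each comparison. The adjusted threshold was 0.05, with 9 residual and 3.45 prior degrees of freedom. Per the labels, the replicate number marks the run. Same-numbered arrays deviated together in 41 of 45 pairs of groups at a correlation over 0.1 (median 0.20, range −0.11 to 0.44). The runs were separate growths of pooled plants, so p-values measure the spread between pools, and 2 arrays per group limit precision. The script was tested on simulated data.

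The genes and lists were chosen with earlier results of these data known. Named are the 5 genes, every measured gene of the breakdown list, from each other list the 3 called genes with the smallest p in WT dark minus light (or 2 if none was called), and the 10 most alike profiles. Alternatives varied the block, offset, floor, array scaling and filter and left out each array. Omission of the WT arrays of run 1 and the single contrast of the 1 h to 4 h change between genotypes were added after the data were seen. No sequence was used.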

Additional observations from a re-analysis of the deposited data

Results flagged for a closer look

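In 11 of 55 changes over time (5 genes by 10 pairs of times and dark minus light), both WT arrays moved one way and both Atss3 arrays the other, run by run, and limma's test of the genotype by time interaction called none of the genes. Of the same changes over all kept probe sets, 6.26% showed this pattern, from 3.81% to 13.5% by change. Given as Atss3 minus WT of the log2 change, MCCA showed this for 4 h minus 1 h (−1.47), 8.5 h minus 1 h (−1.27), 12 h minus 1 h (−1.69) and 16 h minus 12 h (1.39). ETFQO showed it for 4 h minus 1 h (−0.87), 8.5 h minus 1 h (−0.91), 12 h minus 1 h (−0.98), 16 h minus 1 h (−1.06) and dark minus light (−0.58). ALDH6B2 showed it for 4 h minus 1 h (−0.98) and 12 h minus 1 h (−0.87). Of the 11 changes, 9 share the 1 h arrays, and the dark minus light value holds them too, so these values are not independent of each other. The difference itself was tested singly for 4 h minus 1 h and for dark minus light, where none was called, and not for the other intervals.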

How the results depend on the processing

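At 1 h the count of called genes went from 1 to 0 with no replicate block, with 64 added to the signals, with arrays centred on their medians, with no filter on low signals and without the WT arrays of run 1, and leaving out single arrays gave 0 to 2. Without those WT arrays only run 2 was left in WT, so WT calls have less replication to rest on and their counts are not given. Of the 16 pairs of times called in Atss3, no filter gave 10 and leaving out arrays 9 to 16. Leaving out arrays gave 1 to 3 for dark minus light in Atss3 (1 without the run 2 array of 1 h in Atss3), and 1 to 3 for the breakdown list in WT. For the 5 genes in dark minus light in each genotype and in Atss3 minus WT at 1 h and over the day, of 560 alternative values 492 kept direction and side of the threshold, 38 lost a call, 7 gained one and 23 changed sign. These 23 sign changes, all in values not called, were MCCA over the day with arrays centred (−0.0512) or quantile normalised (−0.00699) and on leaving out arrays (−0.0611 to 0.0993), ALDH6B2 over the day with arrays centred (−0.0646) and on leaving out arrays (−0.0518 to 0.0631), and IVD. IVD in WT dark minus light was 0.17 and over the day 0.0185 without the WT arrays of run 1, and ranged on leaving out single arrays from −0.26 to 0.11 and from −0.127 to 0.0205. For the 10 pairs of times in each genotype, of 2800 alternative values 78 lost a call, 17 gained one and 41, all of values that were not called, changed sign. The cause of these moves was not tested. Removing the block changed no other count by over 1.5 times. The lower IVD in dark minus light in Atss3 lost its call without any 1 of 6 arrays. The WT time course of ETFBETA was likewise lost without any 1 of 6 arrays. It was also lost with no replicate block, with arrays centred or quantile normalised, with no filter and without the WT arrays of run 1.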

Other observations

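AT5G38710, a gene on the list for the breakdown of other amino acids, peaked shortly after lights off and was chosen for mention after its values were seen. Its WT signals were 904.7 and 930.3 at 8.5 h, and at the other times its WT arrays lay between 119 and 182. In Atss3 the signals at 8.5 h were 780.6 and 716.6. The limma test over the 5 times was called in WT (adjusted p = 0.000181) and in Atss3 (adjusted p = 0.00334).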
